A study of Saccharomyces cerevisiae with 8 samples.

Results

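The effect of losing MSP1 alone was read from a strain of Saccharomyces cerevisiae W303 lacking the gene (msp1Δ) set against wild-type W303, once by RNA-seq and once by sequencing of ribosome-protected fragments (RPF), the pieces of mRNA that translating ribosomes shield from nuclease. The comparison used 4 of the 8 libraries and 3737 of the 6668 listed genes, namely those with a mean of at least 50 reads over the 4 genotypes in each assay. The other genotypes, pex19Δ and msp1Δpex19Δ, are quoted only to show where the msp1Δ value stood among 4 strains. All 4 strains grew on 2% glycerol and 2% ethanol, which yeast can use only by respiration, in synthetic complete (SC) medium, and were harvested after 16 h, at an optical density of 2 to 2.5, from a 500 mL culture. Each genotype was 1 sample that gave 1 library per assay, so the ratios have no replicate check, no test was possible, and every interval is a 95% counting interval. The sources used here do not give how each deletion was made or how many clones were kept.

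Msp1 is an AAA ATPase anchored in the outer mitochondrial membrane and in peroxisomes. It pulls tail-anchored proteins, which carry a single hydrophobic segment at their C-terminus, out of the outer membrane when they have been inserted there by mistake, and it also clears precursors stuck in the protein import channel. Tail-anchored proteins bound for the endoplasmic reticulum (ER) are normally delivered by the GET pathway, and Pex19 delivers many membrane proteins to peroxisomes. By its title, the study concerned the mitochondrial dysfunction of Zellweger spectrum disorder, a disease of peroxisome assembly.

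The RNA-seq libraries held 5367091 reads in wild type and 5302691 in msp1Δ, and the RPF libraries 2133432 and 1101458. The msp1Δ RPF library was the smallest of the 8, with a median of 93 reads per kept gene against 169 in wild type. After scaling, the RPF totals stood for 2113876 and 1110431 reads, so a gene translated equally in both strains has fewer RPF reads in msp1Δ. Ratios are log2 of the scaled reads in msp1Δ over those in wild type. They are shares within an assay, so fewer cells and less RNA per cell cannot be told apart. The middle 50% of genes lay between −0.13 and 0.12 in RNA-seq and between −0.27 and 0.31 in RPF, the RPF pair holding the shallower library.

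The MSP1 reads matched the labels. MSP1 (YGR028W, chromosome VII, 542203 to 543291) had 731 RNA-seq reads in wild type and 607 in pex19Δ, and was listed at 1, the lowest value of these tables, in msp1Δ and msp1Δpex19Δ. Its RPF reads were 122, 175, 1 and 1 in the same order of strains. With 3 reads as the limit for an unread gene, MSP1 in msp1Δ lay at least 236-fold below wild type in RNA-seq and at least 21.4-fold below it in RPF.

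ERV1, whose coding sequence begins 261 nt after that of MSP1 on the same strand (YGR029W, chromosome VII, 543553 to 544205, 2 coding exons), encodes the sulfhydryl oxidase that recycles Mia40 in the mitochondrial intermembrane space. Its RNA-seq reads were 286 in wild type, 169 in msp1Δ, 323 in pex19Δ and 131 in msp1Δpex19Δ. Its RPF reads were 166, 33, 128 and 35. Both strains without MSP1 were thus below both strains with it in each assay. The RNA-seq ratio of msp1Δ was −0.71 (−1.0 to −0.43) and its RPF ratio −1.39 (−1.99 to −0.86). The next protein-coding gene upstream, the Ty element YGR027W-B, was listed at 1 in all 8 libraries and says nothing about its side. Whether ERV1 was low through its place beside the deletion was not tested.

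Few genes differed at least 2-fold in RNA. There were 8 genes higher (0.214% of those kept) and 2 lower (0.0535%), of which MSP1 was one. In RPF 68 genes were higher (1.82%) and 47 lower (1.26%). At least 2-fold higher in both assays were 6 genes (0.161%), and MSP1 was the only one lower in both (0.0268%). Translational efficiency, the RPF ratio minus the RNA-seq ratio on the log2 scale, was at least 2-fold higher for 83 genes (2.22%) and lower for 62 (1.66%) of 3736 genes without MSP1. Of all kept genes 49.5% were above wild type in RNA-seq and 51.1% in RPF. Across 3736 genes both ratios together had a Spearman correlation of 0.191, given as a description because each pair of libraries comes from the same cultures and low counts widen the RPF values.

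**Figure D1:**
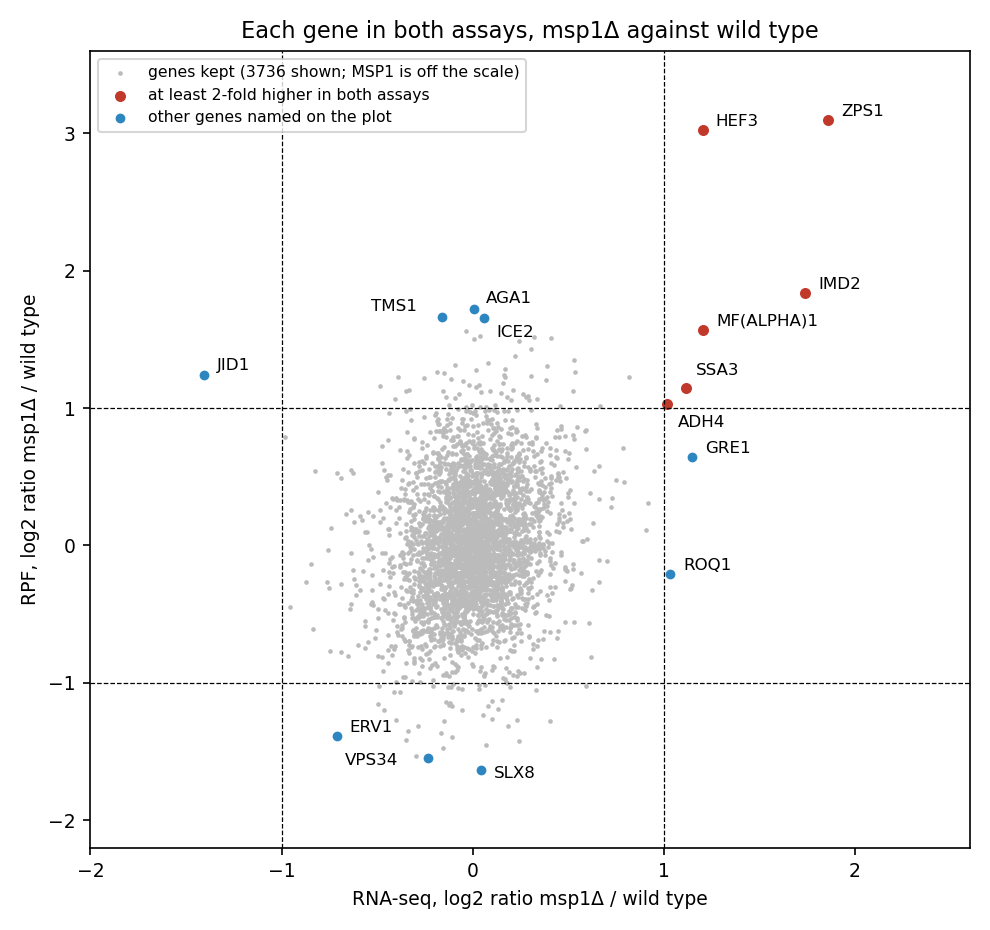
RNA-seq (horizontal) and RPF (vertical) log2 ratios of msp1Δ to wild type, 1 point per gene, with dashed lines at 2-fold. The cloud is taller than it is wide, 6 genes lie in the upper right corner, and JID1 lies alone at the upper left with −1.40 and 1.24.

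The 6 genes higher in both assays belong to several processes. ZPS1 (YOL154W, chromosome XV, 34658 to 35407), a cell-surface protein made at low zinc, had 168 RNA-seq reads in wild type, 594 in msp1Δ, 37 in pex19Δ and 103 in msp1Δpex19Δ. Its RPF reads were 45, 207, 3 and 37. It was highest in msp1Δ in both assays, with an RNA-seq ratio of 1.86 (1.62 to 2.12) and an RPF ratio of 3.10 (2.66 to 3.63). ADH4 (YGL256W, chromosome VII, 15159 to 16307), an alcohol dehydrogenase made when zinc is short, had 4748, 9321, 365 and 3615 RNA-seq reads and 4558, 4898, 118 and 2759 RPF reads. It too was highest in msp1Δ and lowest in pex19Δ, and its msp1Δ ratios were 1.02 (0.97 to 1.07) and 1.03 (0.97 to 1.09). ADH4 sat at the limit and missed it in RNA-seq when libraries were scaled by their totals (0.990) and in RPF when the scaling used all listed genes (0.832).

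HEF3 (YNL014W) is a second copy of translation elongation factor 3, the fungal factor that releases spent tRNA from the ribosome. Its RNA-seq reads were 407 in wild type, 910 in msp1Δ, 209 in pex19Δ and 380 in msp1Δpex19Δ, a ratio of 1.20 (1.04 to 1.38). Its RPF reads were 35, 154, 35 and 30, a ratio of 3.02 (2.53 to 3.64). HEF3 thus stood out in 1 strain of 4, and more in RPF than in RNA, with a translational efficiency ratio of 1.82. The main elongation factor 3 gene YEF3, with 19720 RNA-seq reads in wild type, had ratios of −0.17 and −0.13.

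IMD2 (YHR216W) encodes inosine monophosphate dehydrogenase, the first enzyme on the branch to guanine nucleotides. It had 78, 255, 60 and 202 RNA-seq reads and 52, 99, 42 and 85 RPF reads in wild type, msp1Δ, pex19Δ and msp1Δpex19Δ. Both strains without MSP1 were above both with it, and the msp1Δ ratios were 1.74 (1.38 to 2.14) and 1.83 (1.36 to 2.37). The other genes of this enzyme were nearer 0, IMD3 at 0.25 and 0.39 and IMD4 at 0.00 and 0.06. SSA3 (YBL075C), a stress-inducible cytosolic Hsp70, had 926, 1944, 700 and 720 RNA-seq reads and 277, 323, 221 and 174 RPF reads, with ratios of 1.11 (1.00 to 1.23) and 1.15 (0.91 to 1.39). Its RPF ratio was 0.947 when the scaling used all listed genes. SSA4, the other inducible Hsp70, was 0.72 and 0.28, and the abundant SSA1 0.25 and −0.32, though SSA1 shares 96.4% of its coding sequence with SSA2.

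MF(ALPHA)1 (YPL187W), the precursor of the α-factor pheromone, had 121, 272, 224 and 136 RNA-seq reads and 112, 176, 225 and 64 RPF reads in the same order of strains. The msp1Δ ratios were 1.21 (0.90 to 1.54) and 1.57 (1.23 to 1.94), and pex19Δ was also above wild type at 1.12 and 0.89. Against the mean of wild type and pex19Δ its RNA-seq ratio was 0.647, short of 2-fold. The other genes specific to α cells had few RPF reads, with STE3 at 6 in wild type and SAG1 at 3, while the receptor for α-factor, STE2, which a cells make, had 244. Their RNA-seq reads in wild type and msp1Δ were 26 and 54 for STE3, 5 and 37 for MF(ALPHA)2, and 278 and 313 for SAG1. All of these were below the count minimum in RPF. Over the 6 measured a-specific genes the RNA-seq median was 0.14 and the RPF median 0.49, with 4 and 5 above wild type. The msp1Δ value was the highest of the 4 strains for 1 of the 6 in each assay. In pex19Δ the medians were higher, at 0.49 and 0.97, and in msp1Δpex19Δ they were −0.17 and 0.09. In msp1Δ, STE6, the exporter of a-factor, was at 0.08 and 0.99, and BAR1, the protease that degrades α-factor, at 0.33 and 0.89. MFA2, an a-factor gene, was at 0.48 and −0.26, and the lowest of the 6 in RNA-seq was at −0.23. The auxotrophy genes HIS3, TRP1 and URA3 were below the count minimum, with 43, 2 and 4 RNA-seq reads in wild type.

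**Figure D2:**
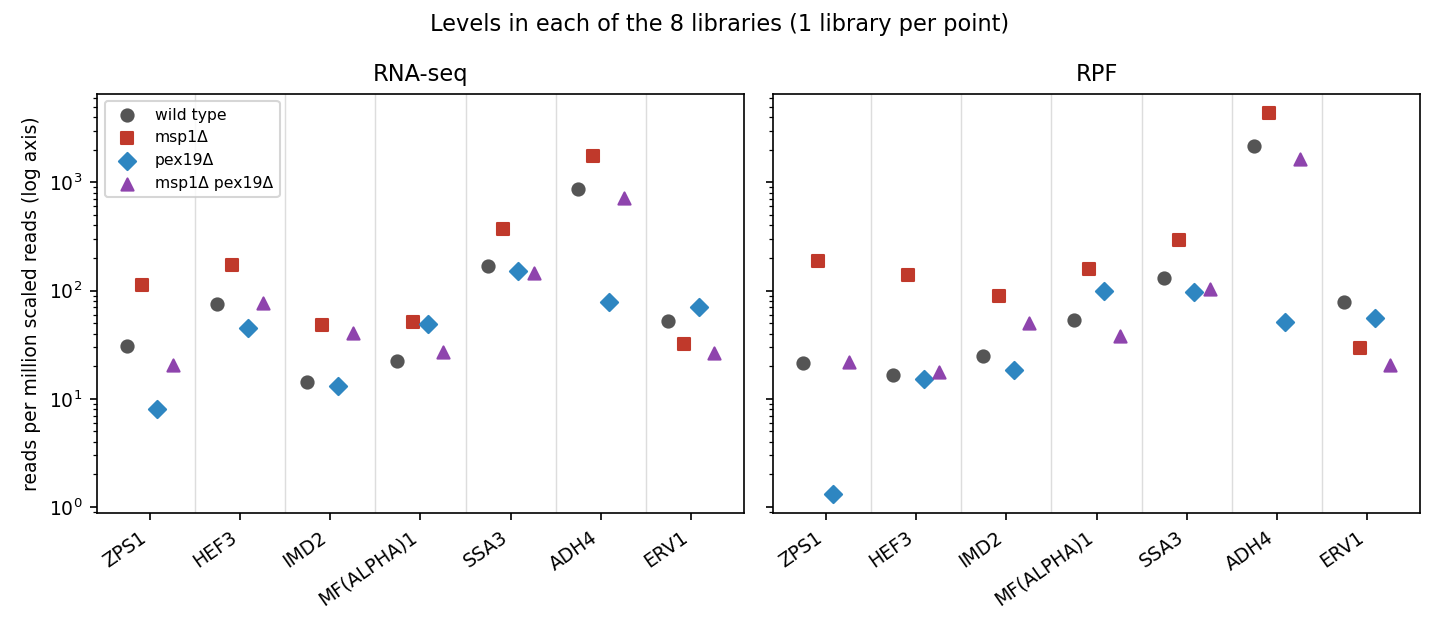
Level of the 6 genes higher in both assays and of ERV1 in each of the 8 libraries, in RPM of the scaled totals on a log axis, 1 library per point. The msp1Δ square is the highest of the 4 strains for all 6 genes in both panels, a rank favoured by their choice through the msp1Δ ratio. ERV1 is lowest in the 2 strains without MSP1.

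ZPS1, ADH4 and HEF3 are all in a list of 27 genes that respond to zinc through the activator Zap1 or carry zinc across membranes, of which 22 were measured. Their RNA-seq median was 0.34 and their RPF median 0.68, against −0.0025 and 0.0147 for all kept genes. Above wild type were 20 of 22 in RNA-seq and 17 in RPF, and msp1Δ was the highest of the 4 strains for 16 and 15 of them. Over all 3737 kept genes msp1Δ was the highest for 807 in RNA-seq and 1318 in RPF. Of the 22 zinc genes, 3 were at least 2-fold higher in RNA-seq and 4 in RPF. The list was drawn up after zinc genes had been seen to differ in these libraries, so its direction is no independent evidence. The other strains' medians on the same list were −0.23 and −0.07 in pex19Δ and 0.05 and 0.06 in msp1Δpex19Δ. All of these share the wild-type libraries.

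The activator itself, ZAP1, had 1614 RNA-seq reads in wild type, 2472 in msp1Δ, 407 in pex19Δ and 1686 in msp1Δpex19Δ, and 289, 227, 153 and 266 RPF reads. Its msp1Δ ratios were 0.66 (0.57 to 0.75) and 0.58 (0.32 to 0.84). ZRT1, the high-affinity zinc importer of the plasma membrane, had 11777, 14547, 3140 and 9843 RNA-seq reads and 5196, 4022, 1708 and 3659 RPF reads, with ratios of 0.35 and 0.56. Both were highest in msp1Δ and lowest in pex19Δ, each by less than 2-fold over wild type. ZRT3, which returns zinc from the vacuole, was 0.38 and 1.20, and ZRC1, which fills the vacuole, 0.19 and 0.98. ZRT2, the low-affinity importer, was 0.45 and 0.79, ZRG17, part of the zinc importer of the ER, 0.53 and 0.77, and MCD4, an enzyme of glycosylphosphatidylinositol anchor synthesis that Zap1 controls, 0.46 and 0.87. ADH1, the zinc-rich main alcohol dehydrogenase that Zap1 represses, was 0.07 and −0.32, and ADH3, its mitochondrial counterpart, 0.09 and −0.23.

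**Figure D3:**
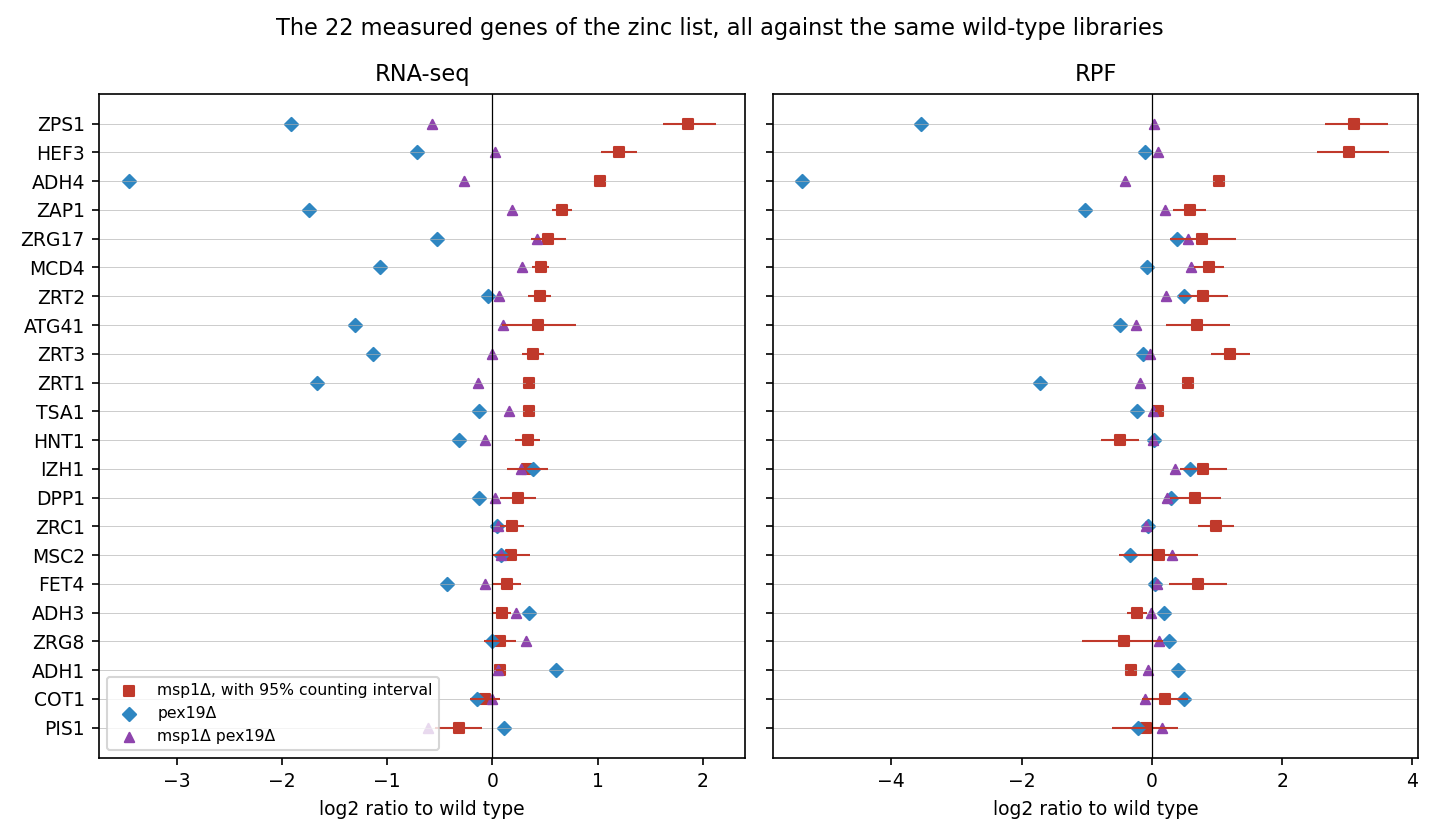
Log2 ratio to the same wild-type libraries for the 22 measured zinc genes in the 3 deletion strains, with the 95% counting interval drawn for msp1Δ. The msp1Δ squares lie right of 0 for 20 genes in RNA-seq and 17 in RPF, and ZPS1 and HEF3 reach furthest in RPF, at 3.10 and 3.02.

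Zap1 binds an 11-base element made of the arms ACCTT and AAGGT around 1 free base. The upstream DNA of these genes is shown because part of the zinc list carries this element, ZPS1 and ADH4 with 1 base different, while the other genes higher in both assays, HEF3 of the zinc list included, had no match. Capitals mark the element, lower case the 9 bases on each side, and each line reads 5′ to 3′ on the strand of its gene in build R64. ZRT1 holds a perfect match at chrVII:20765-20793 on the plus strand, 204 bases before its start codon, ZRG17 at chrXIV:699496-699524 on the minus strand, 84 bases before, and MCD4 at chrXI:140776-140804 on the minus strand, 104 bases before. ZAP1 at chrX:333198-333226 (minus strand, 144 bases before) and ZRT3 at chrXI:118629-118657 (plus strand, 155 bases before) match with 1 base different. ZPS1 has a pair of overlapping windows with 1 base different, at chrXV:34320-34348 and chrXV:34335-34363 on the plus strand, 329 and 314 bases before. ADH4 has its match, also with 1 base different, at chrVII:14632-14660 on the plus strand, 518 bases before, and the same bases lie 494 before MNT2 on the other strand.
ZRT1: acatatttgACCTTGAAGGTcatggaaag
ZRG17: aaatgatgaACCTTGAAGGTatttttgtt
MCD4: gaaaaaaaaACCTTAAAGGTaaaaagaac
ZAP1: cagtcatctACCCTAAAGGTcatgatgaa
ZRT3: gtgacaacaACCTTAAGGGTaatggactt
ZPS1 first: ttataattgACCTTCAGGGTtaggaccct
ZPS1 second: agggttaggACCCTGAAGGTtttttgtag
ADH4: cttaaatgaACCTTCACGGTtaagcaacc

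With at most 1 mismatch, on either strand and within 600 bases before the start codon, the element occurred in 12 of the 22 measured zinc genes (54.6%) and in 130 of 5991 promoters (2.17%). This search was added after a stricter one, for the letters ACCT and AGGT around 3 free bases within 250 bases before to 50 after the start, had found 3 of the 22 and 0.217% of 5993 promoters. In RNA-seq the 12 zinc genes with the element had a median of 0.42 and the others 0.11, and in RPF 0.79 and 0.00093. The stricter search split them less, at 0.46 for the 3 with a match and 0.33 for the others in RNA-seq. In RPF these were 0.77 and 0.67. Its letters within 600 bases before the start matched 4 of the 22, with medians of 0.405 and 0.72 beside 0.33 and 0.64. The split thus depended on the search. Among all kept genes, the 90 with the element at up to 1 mismatch had medians of 0.02 and 0.12. The 21 with the stricter letters within 600 bases had 0.09 and −0.11. HEF3, IMD2, SSA3 and MF(ALPHA)1 had no match in the window, which describes those letters only.

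Outside the 6 genes, 2 more were at least 2-fold higher in RNA and not in RPF. GRE1, a hydrophilin induced by osmotic and desiccation stress, had 447, 961, 204 and 253 RNA-seq reads in wild type, msp1Δ, pex19Δ and msp1Δpex19Δ, and 536, 440, 416 and 283 RPF reads. Its ratios were 1.15 (0.99 to 1.31) and 0.64 (0.46 to 0.83), so both assays were above wild type. ROQ1, whose product reprograms the ubiquitin ligase Ubr1 under stress, had 72, 144, 46 and 52 RNA-seq reads but 108, 49, 79 and 92 RPF reads, ratios of 1.03 (0.63 to 1.47) and −0.21 (−0.73 to 0.29). ROQ1 was thus highest of 4 in RNA and near wild type in RPF.

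JID1, a J-domain protein gene of mitochondria, was the one gene besides MSP1 at least 2-fold lower in RNA. It had 496 RNA-seq reads in wild type, 181 in msp1Δ, 742 in pex19Δ and 953 in msp1Δpex19Δ, a ratio of −1.40 (−1.66 to −1.16). Its RPF reads were 54, 68, 71 and 51, a ratio of 1.24 (0.73 to 1.8), so the lowest RNA of the 4 strains went with the highest scaled RPF. Its translational efficiency ratio of 2.65 was the highest measured, MSP1 aside. NNT1, a methyltransferase of elongation factor 1A, had the same shape with less RPF support, at 268, 131, 236 and 217 RNA-seq reads (−0.98) and 58, 53, 61 and 56 RPF reads (0.79). The next lowest in RNA were HPF1, a cell wall mannoprotein, at −0.95 and RRF1, the mitochondrial ribosome recycling factor, at −0.87, and PET100, an assembly factor of cytochrome c oxidase, was at −0.76. HPF1 shares 96.1% of a 512 nt stretch with CSS1, so its value is uncertain.

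The genes higher in RPF included many of the ER and other membranes, and 6 of the 68 were also past 2-fold in RNA. Of the 68, msp1Δ was the highest of the 4 strains for 66, the exceptions being AGA1 and PHO5. Choosing genes by the msp1Δ ratio favours that rank, which msp1Δ held in RPF for 1318 of all 3737 kept genes. RNA-seq lay on the same side for 46, with a median RNA-seq ratio of 0.10. In wild type they had 35 to 4558 RPF reads, with a median of 63, so the counting interval lay wholly above 2-fold for 14. AGA1, the anchor subunit of a-agglutinin, had 46, 81, 277 and 52 RPF reads in wild type, msp1Δ, pex19Δ and msp1Δpex19Δ, a ratio of 1.72 (1.21 to 2.30) beside 0.00 in RNA-seq, and pex19Δ was higher still.

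TMS1, a membrane protein of the vacuole, had 63, 106, 120 and 65 RPF reads (ratio 1.66, 1.22 to 2.15) and −0.16 in RNA-seq. ICE2, an ER membrane protein that shapes cortical ER and lipid synthesis, had 47, 79, 67 and 40 RPF reads (1.65, 1.14 to 2.23) and 0.06 in RNA-seq. ALG1, the mannosyltransferase that begins the mannose part of the N-glycan precursor, had 49, 77, 93 and 65 (1.56, 1.05 to 2.13) and −0.03 in RNA-seq. In each of these msp1Δ had the highest scaled RPF and an RNA level close to wild type. SCS3, needed for normal lipid droplet budding and phospholipid synthesis, was 1.51 in RPF and 0.41 in RNA-seq, and DFM1, a rhomboid pseudoprotease of ER-associated degradation, 1.43 and 0.31. MME1, a magnesium exporter of the inner mitochondrial membrane, rested on more reads, 318, 420, 354 and 355, with 1.33 in RPF (1.12 to 1.54) and 0.08 in RNA-seq.

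Enzymes of N-glycan assembly were grouped after the values of some had been seen, so their count is a description only. Of 25 genes of precursor synthesis and oligosaccharyltransferase 19 were measured, and their median was 0.57 in RPF beside 0.02 in RNA-seq. In RPF 12 were above wild type and 7 below, 5 were at least 2-fold higher, ALG1 among them, and the lowest was at −0.40. ALG6, which adds the first glucose, was 1.5 (57 and 86 RPF reads in wild type and msp1Δ), and STT3, the catalytic subunit of oligosaccharyltransferase, 1.26 (162 and 204). ALG12 and ALG9, both mannosyltransferases, sat at the limit with 1.03 and 1.01. Their RNA-seq ratios were 0.01, −0.15, −0.00 and −0.03. Of 68 genes higher in RPF, 23 (33.8%) were annotated by direct assay to the ER, against 11.5% of all kept genes. Annotated to the vacuolar membrane were 7 (10.3% against 4.34%), and to the nucleus 6 (8.82% against 25%). These shares read the same RPF values that chose the genes and are a description only.

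Membrane proteins were therefore counted by sequence. Hydrophobic segments were called where the mean Kyte-Doolittle hydropathy over 19 residues reached 1.6, a measure added after the RPF values were seen. It is a rough one, since Msp1, Tom5 and Tom7, which span a membrane once, score 0. Of the 68 genes higher in RPF, 42 had at least 1 segment (61.8%, against 28.6% of all kept genes) and 26 had none. RPF medians were −0.06 for 2667 genes without a segment, 0.11 for 610 with 1, 0.23 for 217 with 2 to 3, 0.35 for 101 with 4 to 6 and 0.36 for 139 with 7 or more. The share of genes above wild type in RPF was 44.1%, 61.3%, 75.1%, 79.2% and 84.9% in the same order. RNA-seq medians of the same classes lay between −0.01 and 0.04. Genes with 7 or more segments could still be below wild type, as were PTR2, the di- and tripeptide transporter, at −0.36 in RPF with 851 reads in wild type and 349 in msp1Δ, and VBA4, a vacuolar membrane protein, at −0.46.

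The deviation of each strain from the mean of the 4 genotypes was compared for the same classes, because a ratio to wild type also carries what is particular to the wild-type library. For genes with 7 or more segments the RPF median deviation was −0.16 in wild type, 0.25 in msp1Δ, 0.03 in pex19Δ and −0.10 in msp1Δpex19Δ. For genes without a segment it was 0.03, −0.04, 0.01 and 0.02. The msp1Δ library thus stood furthest from the mean and the wild-type library next, on the other side. Against wild type, the 7 or more class had an RPF median of 0.18 in pex19Δ and 0.05 in msp1Δpex19Δ. All 3 ratios share the wild-type library, and the strain that also lacks PEX19 did not show the high value of msp1Δ.

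**Figure D4:**
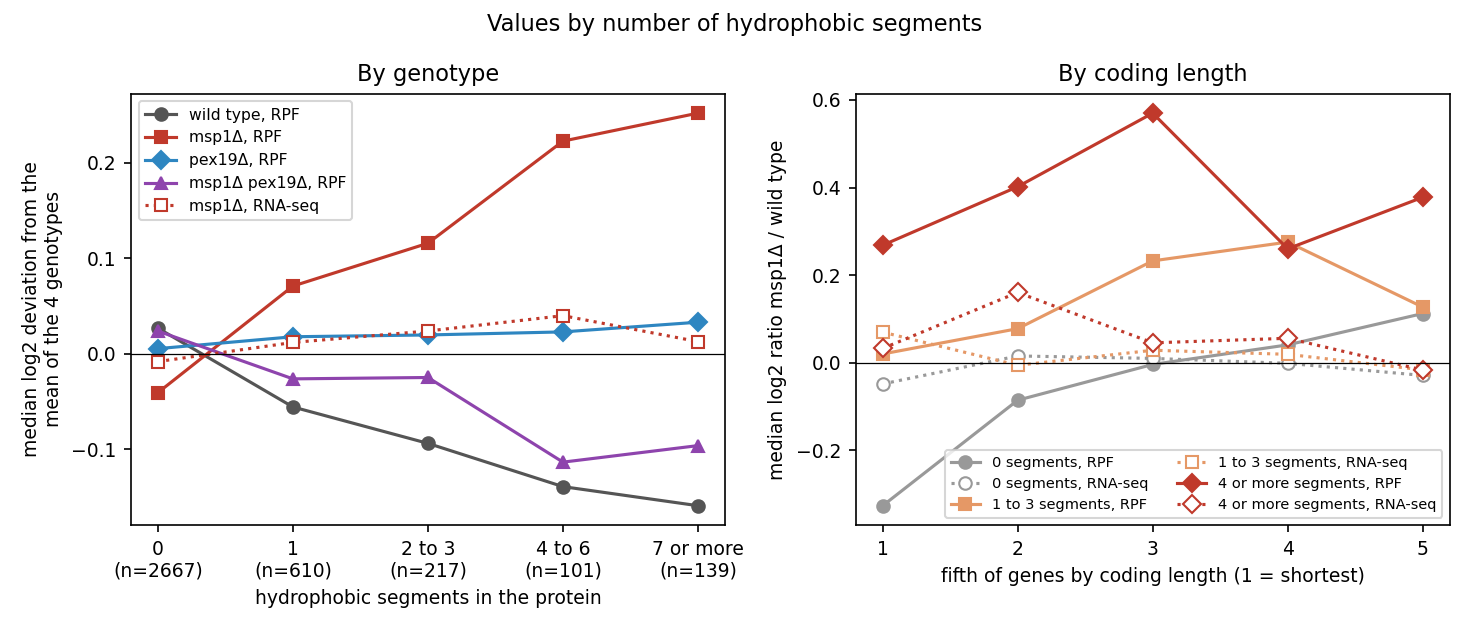
Left, median log2 deviation from the 4-genotype mean by number of hydrophobic segments, with 1 line per strain for RPF and an open line for msp1Δ RNA-seq. Right, median msp1Δ ratio to wild type in 5 classes of coding length, by segment number. In RPF the msp1Δ line climbs to 0.25 while the RNA-seq line stays near 0, and genes with 4 or more segments lie above genes without any in all 5 length classes.

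Coding length moved with the RPF ratio as well. Of 10 classes by length, the shortest, 78 to 462 nt, had an RPF median of −0.36, and the longest, 3015 to 14733 nt, one of 0.17, while the RNA-seq medians were −0.04 and −0.02. Over 3734 genes the Spearman correlation of the RPF ratio was 0.312 with coding length, 0.283 with the number of segments and −0.134 with coding GC content. Against the same wild-type library, the RPF ratio of pex19Δ had correlations of 0.207 with coding length and 0.199 with segments. For msp1Δpex19Δ they were −0.070 and 0.079. Each value describes genes that share 2 libraries. The part of depth, fragment selection or the shared wild-type library in the length trend was not tested. Within each of 5 classes of coding length, genes with 4 or more segments were above genes with 0. The medians were 0.27 and −0.33 among the shortest, where 13 genes had 4 or more, 0.40 and −0.09 in the next, 0.57 and −0.0041 in the middle, 0.26 and 0.04 in the fourth and 0.38 and 0.11 in the longest. Short genes include many of the 138 cytosolic ribosomal protein genes, which had an RPF median of −0.50. Medians by segment without them were not made, so their part in the contrast among short genes was not tested. With the trends over length and GC removed, the medians were 0.255 for 7 or more segments and −0.051 for none.

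RPF values also differed by the place of a lone segment. Genes with their only segment in the first 40 residues, as in signal sequences and N-terminal anchors, had an RPF median of 0.29 over 150 genes. Those with an internal segment were at 0.11 over 374, and those with it in the last 40 residues, as in tail-anchored proteins, at −0.09 over 86. Median coding lengths of these 3 classes were 1086 nt, 1893 nt and 774 nt. In the shortest of 5 length classes the RPF medians were 0.10, −0.15 and −0.22 in the same order, and in the next 0.25, −0.07 and −0.15. They were 0.41, 0.15 and 0.13 in the middle class and 0.46, 0.20 and 0.14 in the fourth. The longest held only 2 genes with the segment in the last 40 residues. Internal and C-terminal segments were thus nearer to each other at like length, and N-terminal ones stayed above both. RNA-seq medians over all lengths were 0.02, 0.00092 and 0.05.

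Compartments annotated by direct assay showed the segment pattern within each membrane. ER genes had an RPF median of 0.23 over 428, but 0.02 for the 73 without a segment and 0.30 for the 219 with 2 or more. With 2 or more segments the median was 0.28 over 36 Golgi genes, 0.27 over 93 of the plasma membrane, 0.34 over 72 of the vacuolar membrane and 0.41 over 12 of the mitochondrial inner membrane. Those 12 inner-membrane genes were above wild type without exception, and the 44 of that membrane without a segment had a median of 0.01. Their median coding lengths differed, at 1717.5 nt and 961.5 nt. Mitochondrial outer-membrane genes were at 0.12 over 78, with 0.04 for 41 without a segment and 0.27 for 8 with 2 or more. Nuclear genes had −0.05 over 934, but 0.20 for the 25 with 2 or more segments. Those 25 had a median coding length of 3513 nt, against 1308 nt for the 934. Genes of 3015 nt or more had an RPF median of 0.17, as given above. Nucleolar genes had −0.15 over 172 and genes of the mitochondrial intermembrane space −0.25 over 51, the last being short at a median of 591 nt.

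The genes lower in RPF were shorter than most. Their median coding length was 822 nt, against 1305 nt for all kept genes and 1494 nt for the 68 higher. Of the 47, 41 had no segment (87.2%, against 71.4% of all kept genes). For 45 msp1Δ was the lowest of the 4 strains, a rank that the choice by the msp1Δ ratio favours. It held that rank in RPF for 1299 of all 3737 kept genes. RNA-seq was below wild type for 28 of the 47, with a median of −0.11. MSP1 was the one gene whose interval lay wholly below 2-fold. SLX8, a subunit of a SUMO-targeted ubiquitin ligase, had 91 RPF reads in wild type, 15 in msp1Δ, 79 in pex19Δ and 75 in msp1Δpex19Δ, a ratio of −1.63 (−2.57 to −0.88), and 0.05 in RNA-seq. VPS34, the phosphatidylinositol 3-kinase of vacuolar sorting and autophagy, had 58, 10, 79 and 64 (−1.55, −2.74 to −0.63), and RLF2, a subunit of the histone-loading chromatin assembly factor 1, 123, 22, 97 and 86 (−1.53, −2.28 to −0.89). Both had msp1Δ as the lowest strain, and RNA-seq ratios of −0.23 and −0.30. RRP15, a pre-60S ribosome assembly factor, was −1.45 in RPF and 0.07 in RNA-seq, and MOG1, a nuclear import factor, −1.42 and 0.24. Lowest in translational efficiency were SLX8 and the splicing factor PRP11 at −1.68 each.

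Genes of ribosomal proteins were lower as a group. Over both cytosolic subunits 138 genes had an RNA-seq median of −0.21 and an RPF median of −0.50, with 127 and 136 below wild type. The msp1Δ value was the lowest of 4 strains for 71 in RNA-seq and for 133 in RPF. Over all 3737 kept genes it was the lowest for 822 and 1299. Ribosomal protein genes took 5.71% of RNA-seq reads in wild type, 4.87% in msp1Δ, 6.09% in pex19Δ and 5.01% in msp1Δpex19Δ. In RPF the shares were 9.05%, 6.62%, 8.37% and 8.56%, so msp1Δ was lowest in both assays and set apart in RPF. RPS30B had 1099, 702, 825 and 728 RNA-seq reads and 699, 222, 749 and 540 RPF reads, ratios of −0.60 and −0.72, but shares 95.8% of its sequence with RPS30A. Those above wild type in RPF were RPL41A at 0.62 and RPL15B at 0.50. The list is short-coding, with a median of 433.5 nt, and the RPF values of short genes were low as a whole, as given above. Ribosomal protein genes are themselves among those short genes, so that background is not independent of them. With the trends over length and GC removed, the RPF medians of both subunits' lists kept their sign.

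Medians of other parts of the translation machinery were nearer to those of all genes. Translation factors had medians of −0.08 and −0.26 with 11 and 10 of 43 above wild type. Ribosome biogenesis factors were at −0.13 and −0.12 over 100 genes, with 76 below in RNA-seq and 60 in RPF. Mitochondrial ribosomal proteins were at −0.12 and −0.17, with 19 of 72 above wild type in each assay, MRPL11 at 0.25 and 0.63 among them and IMG1 at −0.47 and −0.92 at the other end. Histone genes, which lie outside that machinery and were not near the RPF median of all genes, were at −0.13 and −0.41. In RPF 0 of 11 were above wild type, and their median coding length was 399 nt.

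For the proteins closest to Msp1's own work, only RNA and RPF of their genes were read, and protein amounts were not measured. Of its reported substrates, PEX15, a tail-anchored peroxisomal protein, had 165, 212, 145 and 173 RNA-seq reads and 50, 31, 59 and 61 RPF reads, ratios of 0.40 (0.11 to 0.71) and 0.23 (−0.46 to 0.91). GOS1, a Golgi SNARE, was 0.24 and −0.06 and FRT1, of the ER membrane, −0.16 and 0.28. PEX15 was thus highest of 4 in RNA, and the RPF intervals of all 3 included 0. Those of PEX15 and FRT1 were wide, with upper ends of 0.91 and 0.85. CIS1, induced when import stalls and bound by Msp1, was below the count minimum with 32 RNA-seq reads in wild type and 33 in msp1Δ.

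The tail-anchored lists had lower medians in RPF than in RNA, and their genes are short, with median coding lengths of 322.5 nt in the outer mitochondrial membrane and 735 nt in the ER and Golgi. Among the shortest of 5 length classes, the RPF median was −0.19 for 5 outer-membrane genes and −0.05 for 11 ER and Golgi genes, against −0.03 for all 101 genes with 1 hydrophobic segment. In the next class 10 ER and Golgi genes were at −0.24 against 0.0077, and in the middle one 3 were at 0.28 against 0.16. TOM5 and TOM7 had no called segment and so were outside the 101, which hold segments at any place. Genes whose only segment was C-terminal are a closer comparison, though list members may be among them. Their RPF medians, shortest class first, were −0.22 over 34 genes, −0.15 over 25 and 0.13 over 13. Of the list medians by class given here, only that of the 10 ER and Golgi genes was lower. With the trends over length and GC removed, the RPF medians of both lists kept their sign, the ER and Golgi list taken with HMG1, described below. The part of length in the RPF medians was not tested further. Medians over the 6 in the outer mitochondrial membrane were 0.09 and −0.44, with 1 above wild type in RPF, FIS1 of the fission machinery at 0.03. TOM22, the central import receptor, had 651, 212, 603 and 467 RPF reads in wild type, msp1Δ, pex19Δ and msp1Δpex19Δ, a ratio of −0.69 (−0.92 to −0.46) beside −0.16 in RNA-seq. GEM1, a GTPase that marks ER contact sites, had 78, 21, 68 and 60, a ratio of −0.94 (−1.73 to −0.25) beside 0.21. In both genes msp1Δ was the lowest strain in RPF. Over 24 tail-anchored proteins of the ER and Golgi the medians were 0.02 and −0.19, with 6 above wild type in RPF. Among these BOS1, a SNARE of ER-to-Golgi vesicles, had 104, 26, 126 and 142 RPF reads (−1.05, −1.75 to −0.44) and 0.33 in RNA-seq, while the highest of them in RPF was at 0.41. That list was drawn up with HMG1 in it, a sterol synthesis enzyme that crosses the ER membrane several times and is no tail-anchored protein, and the values here leave it out. GET pathway genes had medians of 0.03 and −0.18 over 9, from MDY2 at −0.12 and −0.75 to GET1, a subunit of the ER receptor, at −0.49 and 0.39.

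Genes of mitochondrial protein import had medians of −0.05 and 0.08 over 31. Genes of the intermembrane-space disulfide relay and its substrates, ERV1 among them, had medians of −0.13 and −0.36 over 18, with 6 and 5 above wild type. COX23, a twin-cysteine protein of cytochrome oxidase assembly, had 77, 19, 54 and 63 RPF reads (−1.07, −1.90 to −0.35) and −0.41 in RNA-seq. TIM8, a small chaperone of carrier import, was −0.32 and −0.73, and the receptor MIA40 −0.12 and 0.16. Their median coding length was 322.5 nt, within the range of the shortest of the 10 length classes. Respiratory complexes II to IV were at 0.02 and −0.16, ATP synthase at 0.01 and −0.26 and the TCA cycle at 0.01 and 0.07. The RPF medians of the first 2 of these lists changed sign, to 0.095 and 0.016, once the trends over length and GC were removed. Drug-resistance and import-stress genes were at 0.08 and 0.05 over 6, with the multidrug transporter PDR5 at 0.20 and −0.28 and YOR1 at −0.06 and 0.75.

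Medians over the unfolded protein response and ER folding genes were 0.17 and 0.30, with 21 and 17 of 23 above wild type. KAR2, the ER Hsp70, had 13370, 17125, 9192 and 14690 RNA-seq reads and 3069, 2634, 2707 and 2773 RPF reads, ratios of 0.40 (0.37 to 0.43) and 0.71 (0.63 to 0.78). It was highest in msp1Δ in both assays. ERO1, the ER oxidase, was 0.23 and 0.83, SEC61, the translocation channel, 0.14 and 0.80, HLJ1, a J-protein of the ER membrane, 0.17 and −0.89. ER-associated degradation genes were at −0.07 and −0.10 over 17, with 4 and 7 above wild type. The ligase HRD1 was 0.07 and 1.01, and its partner USA1 −0.03 and −0.75.

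Some lists of stress and carbon genes were slightly higher in RNA and others were not. Targets of Msn2 and Msn4, the general stress activators, had medians of 0.17 and 0.12, with 32 and 23 of 36 above wild type. Their element AGGGG, on either strand within 250 bases before to 50 after the start, occurred in 21 of the 36 (58.3%), against 21.6% of all 5993 promoters, and the 36 genes had RNA-seq medians of 0.17 with it and 0.17 without. Hsf1 targets and cytosolic chaperones were at 0.12 and −0.23, glycolysis at 0.21 and 0.12 with 20 and 17 of 21 above wild type, and trehalose and glycogen genes at 0.11 and 0.11. Oxidative stress genes were at 0.02 and −0.02, with 16 and 13 of 28 above wild type, genes of glycerol use and synthesis at 0.0017 and 0.01 with 6 of 11 in each assay, and hypoxic genes at −0.04 and −0.41 with 1 of 5 in each. HXT5, a hexose transporter made on non-fermentable carbon, was 0.55 and 0.86, and HSP12, a membrane-protecting stress protein, 0.12 and −0.48. When the scaling used all listed genes, which moved the RPF median of all genes to −0.185, the RPF medians of 3 lists (glycolysis, trehalose and the Msn2 and Msn4 targets) became −0.076, −0.095 and −0.083.

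Lipid and peroxisome genes were higher in RPF than in RNA. Ergosterol synthesis had medians of 0.07 and 0.39, with 15 and 19 of 24 above wild type, ERG24 at 0.08 and 0.84 and HMG2 at 0.22 and 0.85. Sphingolipid synthesis was at 0.01 and 0.26 over 21, led by CSG2, a subunit of the inositolphosphorylceramide mannosyltransferase, with 236, 269, 393 and 246 RPF reads and a ratio of 1.11 (0.86 to 1.38). Peroxins and peroxisomal membrane proteins were at −0.01 and 0.26 over 14, and peroxisomal oxidation and matrix enzymes at 0.12 and 0.30 over 16. Against the same wild-type libraries, the latter enzymes were also above 0 in pex19Δ (0.29 and 0.20) and msp1Δpex19Δ (0.15 and 0.37). The msp1Δ value was the highest of the 4 strains for 3 of these 16 in RNA-seq and for 7 in RPF. In the last list FOX2, the multifunctional β-oxidation enzyme, was 0.28 and 1.08 and FAA2, a fatty acyl-CoA synthetase, 0.12 and 1.02. PEX19 was −0.04 and −0.13, with 387 RNA-seq reads in wild type and 365 in msp1Δ. Iron, purine, cell wall and amino acid synthesis lists had medians within 0.1 of 0 in both assays.

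**Figure D5:**
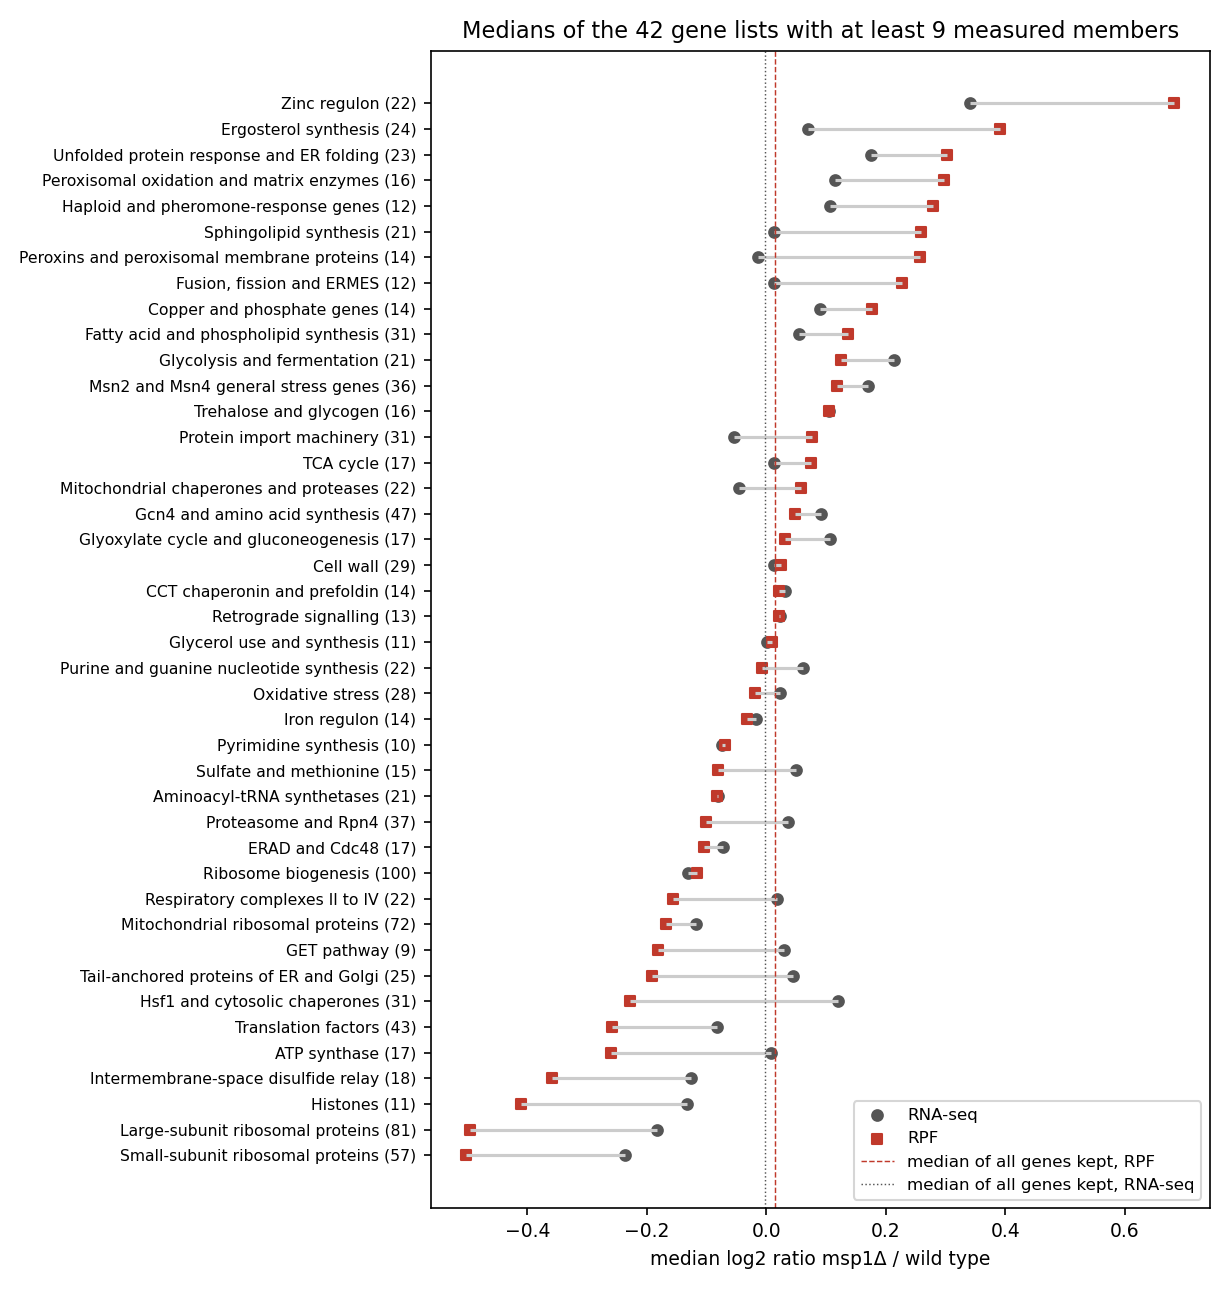
Median log2 ratio of msp1Δ to wild type for 42 gene lists with at least 9 measured members (number in brackets), RNA-seq as circles and RPF as squares, with lines at the medians of all kept genes. The ER and Golgi tail-anchored list is plotted with HMG1. The zinc list lies furthest to the right at 0.34 and 0.68, and the small-subunit ribosomal proteins furthest to the left at −0.24 and −0.50.

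The 2-fold limit left several genes just outside. Those past it in 1 assay and nearest to it in the other were, on the higher side, GRE1, ULI1 (0.82 in RNA-seq and 1.22 in RPF), PRM5 (0.67 and 1.02), RCR2 (0.54 and 1.26), RAM2, the farnesyltransferase α subunit (0.53 and 1.35), and SPS100 (0.52 and 1.13). On the lower side were ERV1, RBG2 (−0.50 and −1.16), PDS1, the securin of anaphase (−0.49 and −1.03), and RPL35A (−0.46 and −1.20), which shares 99.2% of its sequence with RPL35B. Just inside were ADH4 and SSA3. The 6 genes inside had RNA-seq ratios of 1.02 to 1.86, and the nearest outside at most 0.82 where their RPF passed.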

How the data were processed

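The authors deposited 1 gene table per library, with whole-number read counts and, per the file headers, TPM, their length-scaled values. Only the counts entered calculations. Per the file headers, 1 table (msp1Δpex19Δ RNA-seq) further gives the authors' RPM and RPKM, which were left aside. Per the submitters' processing notes, cutadapt 1.8, STAR 2.5 and the build sacCer3 (R64) were used. Not given in the sources used here are which tool counted reads and how it treated strand and reads shared by near-identical genes. The lowest count listed is 1, and whether 1 stands for no read is not stated. Spike oligonucleotides were not used, and mitochondrially encoded genes are not analysed here.

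Counts were scaled within each assay over all 4 genotypes by TMM (edgeR 4.0.16, R 4.3.3), with factors from genes of at least 50 mean counts in the assay, and analysed in Python 3.11.15. Library totals ran from 4694951 to 5367091 in RNA-seq and from 1101458 to 2300792 in RPF. For log2 ratios 1 read, adjusted for library size, was added as a pseudocount. With 1 library per genotype and assay no test was run. Each ratio has an exact conditional binomial (Clopper-Pearson) 95% interval. Because amplified reads lacking molecular identifiers may be copies of a single molecule, both the intervals and the limit of 3 reads for an unread gene speak for counting error alone. The script was tested on simulated counts. Translational efficiency is the RPF minus the RNA-seq log2 ratio.

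Members and the 51 gene lists were chosen with earlier results of these data known. Named genes follow a rule: MSP1 and its neighbours; genes past 2-fold in both assays; the 10 highest and lowest per assay and 6 per direction in translational efficiency; per list the 3 highest and lowest, or all of lists up to 10; and the 10 nearest the limit. Genes named beside them (YEF3, IMD3, IMD4, ZAP1, ZRT1, ZRT2, ZRT3, ZRC1, ZRG17, MCD4, SCS3, MME1, ALG6, ALG9, ALG12, STT3, PTR2, VBA4, PEX19 and the genes of the closing observations) were chosen after their values were seen, as were the genes behind the TMM factors, corrections of gene names in the lists, the hydrophobic-segment, segment-place and compartment classes and the zinc element search with a mismatch, the N-glycan list and the removal of HMG1 from a tail-anchored list, which sensitivity values and the plot of lists still hold. Compartments are direct-assay terms of the RefSeq R64 annotation, from which sequences and positions also come. Near-identical copies (blastn, at least 90% identity over 100 nt) were found for 19 named genes. Alternatives were library totals, TMM over all listed genes, TMM without ribosomal protein genes, DESeq2 1.42.0 size factors, other pseudocounts and count minimums, and removal of the trends over coding length and GC content.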

Additional observations from a re-analysis of the deposited data

How the results depend on the processing

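No paired analysis was possible because each genotype has 1 library per assay and the labels carry no replicate numbers, and for the same reason no replicate could be left out. Of the alternative counts past 2-fold, 57 lay within 1.5 times the value reported and 31 did not. Of the medians of lists and classes, 1097 moved by at most 0.1, 116 by more and 13 changed sign, counted where the reported median was at least 0.1 from 0. With TMM over all listed genes the RPF counts became 33 higher and 111 lower, so that 22.9% rather than 59.1% of the genes past 2-fold in RPF were higher, and the translational efficiency counts 35 and 115. That scaling also gave negative RPF medians where the reported ones were positive: glycolysis −0.0760, trehalose −0.0953, Msn2 and Msn4 −0.0826, copper and phosphate −0.0233, fatty acid and phospholipid −0.0613, biotin and thiamine −0.0147 and genes with 1 hydrophobic segment −0.0876. Genes with 7 or more segments stayed above those without (0.156 and −0.259). With library totals 66.7% of the genes past 2-fold in RPF were higher. A minimum mean of 10 reads gave 16 higher and 8 lower in RNA-seq, 204 and 144 in RPF, and 228 and 199 in translational efficiency. A minimum of 200 gave 3 and 0, 6 and 3, and 8 and 7, with 2 and 0 in both assays, and a biotin and thiamine RPF median of −0.189. With no minimum, where genes listed at 1 enter, the counts were 249 and 137, 379 and 204, and 606 and 376, with 37 and 4 in both assays. With the trends over length and GC removed the RPF medians of respiratory complexes II to IV and ATP synthase were 0.0953 and 0.0159, and ADH4 missed 2-fold in RNA-seq (0.996). A reference made of the mean of wild type and pex19Δ, chosen after seeing the data, gave 19 higher and 6 lower in RNA-seq, 45 higher in RPF, 54 higher in translational efficiency and 10 higher in both assays, PEX19 itself among them and MF(ALPHA)1 no longer (0.647 in RNA-seq), and RNA-seq medians of −0.0323 for Msp1 substrates, −0.00662 for the glyoxylate cycle and −0.0552 for a-specific genes. Except where fewer or more genes enter by construction, the cause was not tested. The 1101458 reads of the msp1Δ RPF library limit the RPF values: of 68 genes higher, 14 had an interval wholly above 2-fold.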

Other observations

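At a minimum mean of 10 reads, 3 more genes were at least 2-fold higher in both assays of msp1Δ. YOR387C had 9 RNA-seq reads in wild type, 181 in msp1Δ, 2 in pex19Δ and 22 in msp1Δpex19Δ, and 9, 48, 1 and 6 RPF reads, with msp1Δ ratios of 4.22 (3.42 to 5.53) and 3.19 (2.30 to 4.56). It was highest in msp1Δ and lowest in pex19Δ, as ZPS1 and ADH4 were. SPG1, a gene needed for survival in stationary phase, had 45, 191, 70 and 50 RNA-seq reads and 35, 53, 37 and 46 RPF reads, with ratios of 2.11 (1.66 to 2.63) and 1.5 (0.88 to 2.19). PET18 had 48, 100, 26 and 90 RNA-seq reads and 5, 10, 30 and 12 RPF reads, so its RPF ratio of 1.71 rests on few reads (0.25 to 3.83). These genes were chosen after their values were seen, and all ratios of an assay share 1 wild-type library.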
